A study of Rattus norvegicus with 102 samples.

Results

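Hippocampal area CA3 was compared between aged rats that scored low for memory of a hidden platform in a water maze and aged rats that scored as young rats did. The comparison used the 24 CA3 libraries of aged animals, 12 from aged memory-impaired (AI) and 12 from aged memory-unimpaired (AU) rats, out of 102 libraries made from CA1, CA3 and dentate gyrus (DG) of 34 rats. All animals were male Fischer 344 rats. The aged rats were 17 to 22 months old, and 10 young rats of 5 to 6 months supplied the other CA3 libraries. No drug or genetic change separated the groups, which were formed from a probe trial score set against the lowest score of the young rats. The tissue was dissected by hand without isolating CA2 or the subiculum, and RNA was selected for poly-A tails. Each library came from a different rat, so the spread within a group is a spread between animals. The rat identifiers fall into an R9 series (6 AU and 5 AI rats) and an R1-R2 series (6 AU and 7 AI rats), and what the series stand for is not given in the labels. The groups were defined by behavior, so a difference between them is an association with the memory score and not with a treatment.

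CA3 pyramidal neurons receive the mossy fibers of DG granule cells, excite one another through recurrent collaterals and send the Schaffer collaterals to CA1. The recurrent network is commonly described as the part of the hippocampus that completes a stored pattern from a partial cue, and the mossy fiber input as the part that keeps similar patterns apart. Fast inhibition from interneurons acts through GABA-A receptors, excitation acts through AMPA, kainate and NMDA receptors, and neuropeptides are released by subsets of interneurons and by long-range afferents. In bulk tissue, a transcript can be lower because fewer cells of a type were in the dissected piece or because each cell held less of it, and the data cannot tell these apart.

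Values are reads per gene divided by a size factor for each library, called normalized counts below. Reads per aged CA3 library ranged from 7584777 to 15010580 in the AU group and from 5484504 to 13812306 in the AI group. Each library was scored with markers of CA1, CA3 and DG neurons, as the mean of log2 levels centered on all libraries. The CA3 score was the highest of the 3 in 13 of 13 libraries of the R1-R2 series and in 2 of 11 of the R9 series. In the R9 series the CA1 score was highest in 6 libraries (4 AU and 2 AI) and the DG score in 3 (1 AU and 2 AI). The labelled subfield thus led by rank in the R1-R2 series and not in most libraries of the R9 series. A leading score can still lie below the mean of all libraries. The CA3 score was -0.02 in R1931 of the R1-R2 series. In the 2 libraries of the R9 series where it led, it was -0.14 (R9781) and -0.81 (R9869). All 3 scores were negative in each of these libraries. Values for each series are given beside most of the genes and lists described below. A pair of libraries, both from AI rats, stood apart from the others of their series. The CA3 library of rat R1931 had a median correlation of 0.829 with the rest of the R1-R2 series, where the 12 others had 0.934 to 0.971, and that of rat R9781 had 0.895 in the R9 series, where the 10 others had 0.938 to 0.96. Their part in a result was measured by leaving them out.

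**Figure D1:**
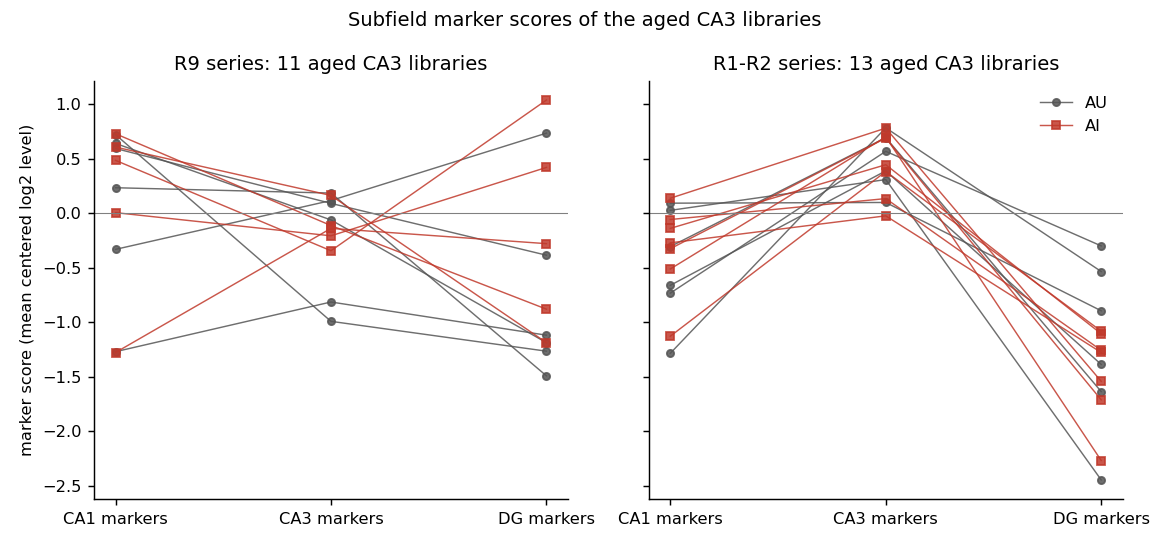
Marker scores of the 24 aged CA3 libraries for CA1, CA3 and DG neurons (vertical axis, mean of centered log2 levels of the markers), with the R9 series on the left and the R1-R2 series on the right. Each line is 1 library, with circles for AU and squares for AI rats. All 13 lines on the right peak at the CA3 markers, and 2 of 11 lines on the left do.

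Across the transcriptome, no gene separated the groups. With limma on log2(normalized count + 1) and the identifier series as a covariate, 0 of 16436 genes (0%) passed an adjusted p of 0.05, and the smallest adjusted p rounded to 1. In 0 genes (0%) did all AI libraries lie outside the range of the AU libraries. At an unadjusted p under 0.05 there were 302 genes, 1.84% of those tested, of which 123 (0.748%) were higher and 179 (1.09%) lower in AI rats. At an unadjusted p under 0.01 there were 31 genes. The p-values were spread unevenly, with 302 genes in the lowest bin of width 0.05, 917 in the highest and 821.8 per bin on average. Tests on the whole reads recovered from the table also called 0 genes at an adjusted p of 0.05. At an unadjusted p under 0.05, edgeR had 319 genes (1.94%), 175 higher and 144 lower, and DESeq2 had 415 (2.52%), 218 higher and 197 lower, so that the excess of lower genes under limma was not seen with either. The median log2 difference over all genes tested was -0.015, and 46.1% of genes were higher in AI rats.

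The count was also 0 at an adjusted p of 0.05 within each series and without the libraries that stood apart. At an unadjusted p under 0.05, the R9 series alone had 448 genes (2.72%) and the R1-R2 series alone, in which the CA3 markers led in every library, had 118 (0.723%). The 15 libraries whose highest score was that of CA3 gave 255 genes (1.56%). This set was formed by rank alone. It holds R1931, R9781 and R9869, whose CA3 scores were negative, and leaves out R9 libraries with a positive CA3 score, such as R9782 (0.18). Without R1931 and R9781 there were 312 genes (1.9%), 158 higher and 154 lower in AI rats. Leaving out each of the 24 libraries in turn gave 237 to 432 genes at an unadjusted p under 0.05 and 0 at an adjusted p of 0.05 each time.

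**Figure D2:**
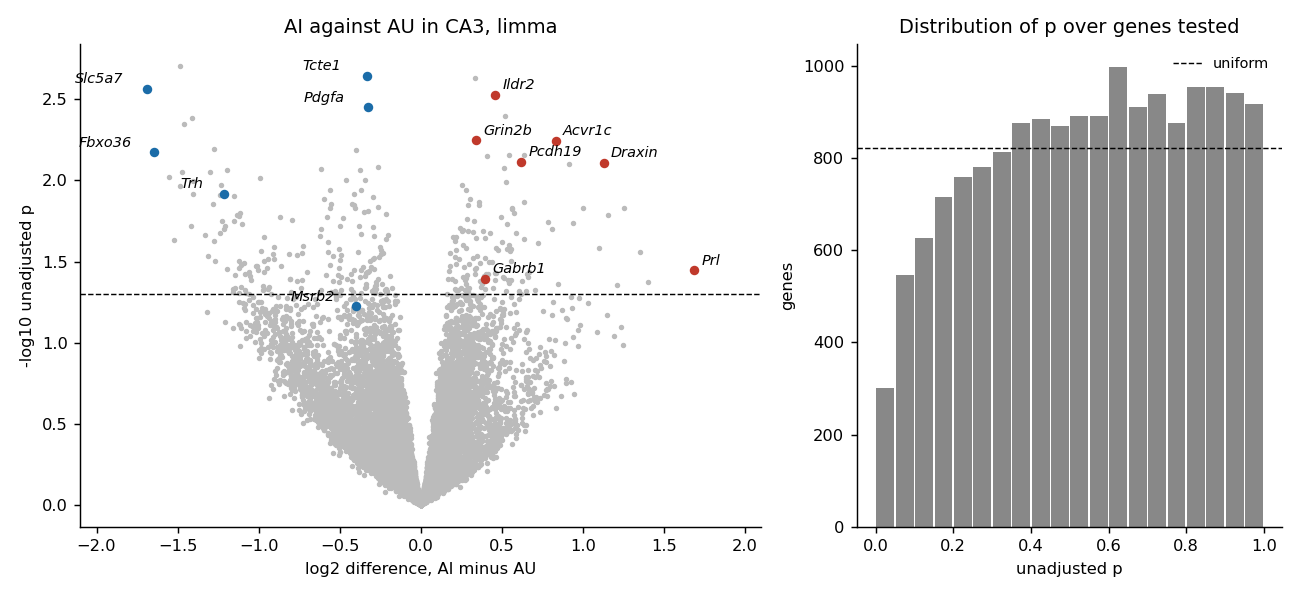
Left, log2 difference of AI minus AU rats (horizontal axis) against -log10 of the unadjusted p (vertical axis) for 16436 genes in CA3, with the dashed line at p = 0.05 and named genes in color (red higher, blue lower in AI rats). Right, the number of genes per bin of unadjusted p, with the dashed line at the mean of 821.8 per bin; the lowest bin holds 302 genes.

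The size of difference that these libraries could have shown depended on the level of the gene. The median standard error of a log2 difference was 0.197, and the median 95% interval reached 0.404 to either side. For 80% of genes the interval lay within a doubling or halving, that is within 1 on the log2 scale, and for 46.4% it lay within 0.5. Among the 10598 genes that averaged 100 normalized counts or more, the shares were 97.7% and 68.6%, and among the 2280 genes that averaged 1000 or more they were 99.9% and 85.4%. Among the 2140 genes that averaged 5 to 20 they were 17.2% and 0%. A doubling was thus outside the interval for nearly all well expressed genes, and for low genes such as peptide precursors or scarce transporters it was often within the interval.

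Of the genes that the study lists for cognitive status in CA3, 7 are described, 5 listed as higher and 2 as lower in AI rats. They were chosen partly on these libraries, by the direction and the p of the study's own test. Neither their direction nor their p here is therefore independent evidence. Of the 6 that passed the filter on low values, 3 had an unadjusted p under 0.05 (Pcdh19, Gabrb1 and Prl), and 0 passed adjustment over all genes. The background share at that level is the 1.84% given above. The choice of the genes favored a p under 0.05, so the count of 3 cannot be read against that share.

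Pcdh19 encodes a delta protocadherin, a cell adhesion molecule of neurons. Its normalized count was lowest at 257.7, had a median of 676.0 and was highest at 1065.6 in AU rats, and the same values were 624.6, 949.3 and 3109.5 in AI rats. The groups overlapped, with every AI library at or above 624.6 and several AU libraries below that level. The log2 difference was 0.62 ± 0.215 (SE, n = 12 and 12; limma unadjusted p = 0.00769, 95% interval 0.18 to 1.06). It was 0.79 in R9 rats and 0.48 in R1-R2 rats, and 0.49 (limma unadjusted p = 0.0104) without R1931. The 3109.5 of R1931 was not shared by the other subfields of that rat, which had 611.2 in CA1 and 1174.3 in DG. In young CA3 the median was 822.4, between those of AU and AI rats. In the other subfields the log2 difference between AI and AU rats was 0.00 ± 0.287 in CA1 and -0.12 ± 0.139 in DG.

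Pcdh17, a related delta protocadherin of synapses, had a median of 913.4 in AU (581.4 to 1353.7) and 942.1 in AI rats (722.4 to 2458.2). The medians were close and the highest AI value was again that of R1931. The log2 difference of 0.23 ± 0.157 (limma unadjusted p = 0.159) became 0.14 without that library. By series it was 0.02 in R9 and 0.41 in R1-R2.

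Gabrb1 encodes the beta1 subunit of the GABA-A receptor, the chloride channel of fast inhibition. Its normalized count was 307.9 at the lowest, 433.0 at the median and 615.9 at the highest in AU rats, and 376.1, 538.6 and 2081.2 in AI rats. Apart from R1931 at 2081.2, the AI libraries lay at or below 617.9, within about the span of the AU libraries. The log2 difference was 0.40 ± 0.184 (limma unadjusted p = 0.0404), 0.43 in R9 rats and 0.37 in R1-R2 rats. Without R1931 it was 0.25 (limma unadjusted p = 0.0381), and without both libraries that stood apart 0.20 (limma unadjusted p = 0.0853), which does not pass the level of 0.05.

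The other genes of the study's list encode enzymes and a ligand. Gda, guanine deaminase of purine breakdown, had a median of 861.2 in AU (498.2 to 1568.4) and 955.3 in AI rats (759.1 to 4653.6), and its log2 difference of 0.31 ± 0.235 (limma unadjusted p = 0.203) was 0.27 in R9 rats, 0.34 in R1-R2 rats and 0.14 without R1931. Msrb2, a mitochondrial methionine sulfoxide reductase that repairs oxidized methionine, had a median of 222.1 in AU (121.7 to 400.2) and 175.9 in AI rats (49.0 to 294.8). The groups overlapped over most of their range. Its log2 difference was -0.40 ± 0.203 (limma unadjusted p = 0.0596), with -0.32 in R9 rats and -0.46 in R1-R2 rats, and -0.28 without R1931, the lowest library at 49.0. Wnt6, a secreted Wnt ligand, was near the limit of detection, with 3 of 12 AU and 6 of 12 AI libraries at 0, medians of 2.25 and 0.406, and highest values of 10.5 and 4.23. It was tested only without the filter on low values, where the log2 difference was -0.80 ± 0.433 (limma unadjusted p = 0.0774).

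Leaving out single libraries moved the unadjusted limma p of several of these genes across 0.05. For Gabrb1 it ranged from 0.0201 to 0.0708 and was above 0.05 when any of 8 libraries was left out, R9781 giving the highest value. For Msrb2 it ranged from 0.0351 to 0.133 and was under 0.05 when any of 6 was left out. For Prl it ranged from 0.0158 to 0.0695, above 0.05 when any of 9 was left out, and without R2233 the gene could not be tested. Pcdh19 remained under 0.05 throughout, from 0.00402 to 0.0176.

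**Figure D3:**
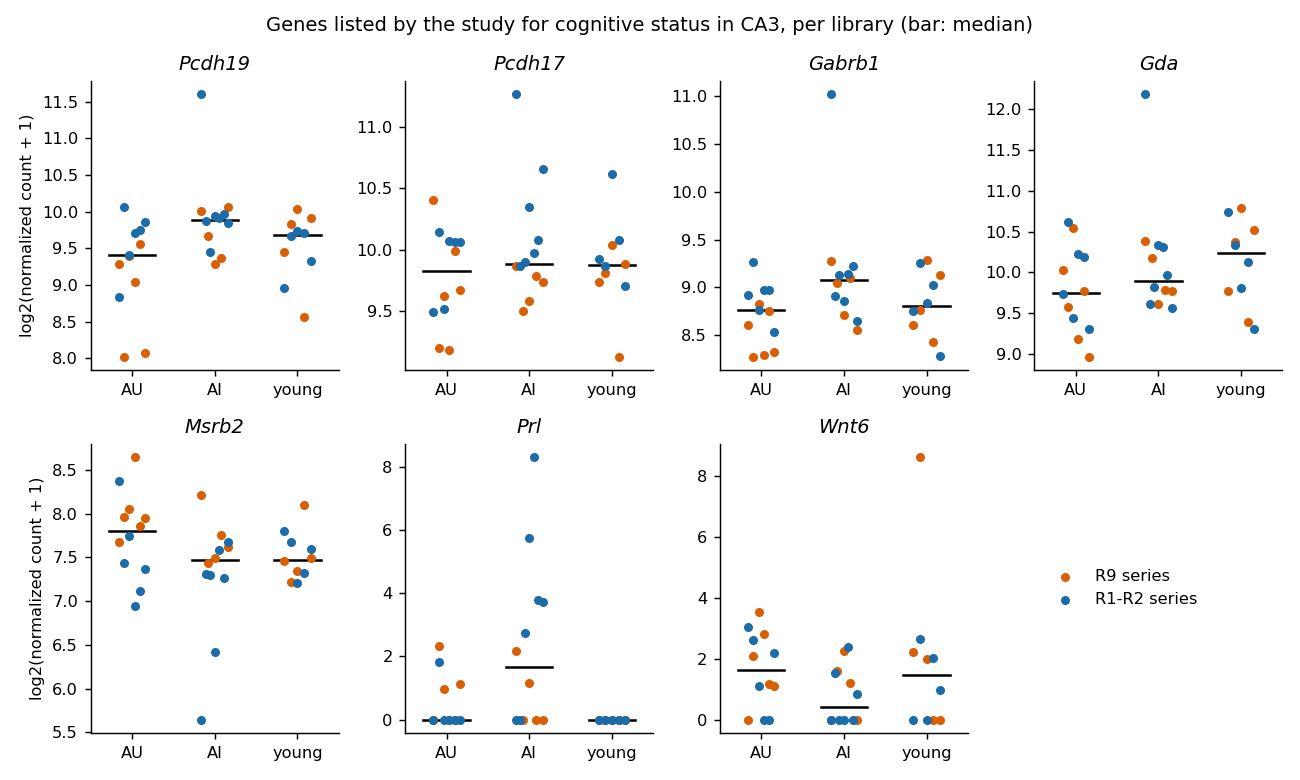
Level per library of 7 genes that the study lists for cognitive status in CA3, as log2(normalized count + 1) on the vertical axis, for AU, AI and young rats, with points colored by identifier series and a bar at the median. In the panels for Pcdh19, Pcdh17, Gabrb1 and Gda a single AI library of the R1-R2 series, R1931, is the highest point; Prl is at 0 in all 10 young and 8 of 12 AU libraries.

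Prl, the pituitary hormone prolactin, had the largest log2 difference of these genes, at a few reads or none in most libraries. It was listed at 0 in 8 of 12 AU and 5 of 12 AI libraries and in 10 of 10 young CA3 libraries. The AU libraries reached 4.05, and the AI libraries had a median of 2.4 and a highest value of 315.3. In CA3, only AI rats of the R1-R2 series exceeded 5 normalized counts, and those libraries held 5.67, 12.2, 12.9, 52.3 and 315.3. The log2 difference was 1.69 ± 0.762 in limma (unadjusted p = 0.0359), with 4.19 in edgeR and 4.09 in DESeq2, which add no pseudocount of 1. Within the R1-R2 series it was 3.16 (limma unadjusted p = 0.0137), and in the R9 series the mean was under 5 and no test was made. The test of the difference between the series gave -3.23 (R9 minus R1-R2, limma unadjusted p = 0.032). The mean of Prl was 56.9 in AI rats of the R1-R2 series, 0.959 in AI rats of the R9 series and 0.729 in AU rats. It passed the filter only through the first of these groups, so none of these p-values can be taken as support for a difference.

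Prl was also read in other subfields of these rats. Rat R2233 had 315.3 in CA3, 26.5 in CA1 and 63.4 in DG, and rat R2231 had 52.3, 55.8 and 16.9. An AI rat of the R9 series, R9781, had 3.54, 17.7 and 7.46. Within rats, the difference of CA3 from CA1 and DG was 0.38 ± 0.392 higher in AI than AU rats on the log2 scale (limma unadjusted p = 0.341). Growth hormone (Gh1), another product of the anterior pituitary, was above 0 in 4 of the 5 CA3 libraries that held over 5 of Prl, and at 0 in the other, that of R2189 with 5.67 of Prl. Gh1 was at 93.1 in CA3, 0 in CA1 and 26.2 in DG of R2233, and at 23, 41.6 and 7.52 in R2231. In R2235 the CA3 library held 12.9 of Prl and 3.79 of Gh1, and in R2238 12.2 and 4.06. Among AU rats, the CA3 library of R2184 held 2.57 of Prl and 5.14 of Gh1. That of R2237 held 0.897 of Gh1, and the other 10 AU libraries of CA3 had Gh1 at 0. The log2 difference of Gh1 between AI and AU rats was 0.90 ± 0.634 (limma unadjusted p = 0.168). Over all 9 pituitary markers in the table, the summed normalized count was 4.92 to 84 in AU (median 31.5) and 20.7 to 453.8 in AI libraries (median 44.6). None of the 9 was at 0 in every aged CA3 library, and 4 of them passed the filter, all with a positive difference (median 0.70). Prl and Gh1, 2 of these, passed only through high AI libraries. Their means were 0.729 and 0.503 in AU and 33.6 and 10.3 in AI rats, so their positive sign was set by the filter. The sign of the list's median was not the same in both series. It was 1.44 in R1-R2 rats, with 4 of 4 positive, and -0.27 in R9 rats, where the 4 members tested did not include Prl or Gh1 and 1 was positive. The part of pituitary RNA in the difference of Prl was not tested. Without R2233 the mean of Prl in CA3 was under 5, and Gh1 could not be tested without R2231 or without R2233.

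The genes with the smallest p in each direction are given next as a description of the top of the ranking, since none passed adjustment. A member of the excitatory receptors stood among the 10 higher in AI rats. Grin2b encodes the GluN2B subunit of the NMDA receptor, which sets slow calcium entry at synapses. Its normalized count was 981.1, 1221.4 and 1667.3 (lowest, median, highest) in AU and 1166.2, 1533.4 and 2960.9 in AI rats. The upper part of the AI range lay above the AU range and the lower part within it. The log2 difference was 0.34 ± 0.114 (limma unadjusted p = 0.00567), with 0.41 in R9 and 0.29 in R1-R2, and 0.28 without R1931, which was the highest library. It was -0.08 ± 0.178 in CA1 and -0.15 ± 0.0988 in DG. Within rats the CA3 effect exceeded the mean of the other subfields by 0.46 ± 0.178 (limma unadjusted p = 0.017). Grin2b was picked for its difference in CA3, which is part of that value, so this p is not independent evidence of an effect particular to CA3.

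Acvr1c, which encodes ALK7, a type I receptor of the activin and TGF-beta family, had a median of 56.3 in AU (13.8 to 110.8) and 85.8 in AI rats (43.1 to 297.3). Its log2 difference of 0.83 ± 0.277 (limma unadjusted p = 0.00569) was nearly the same in R9 (0.82) and R1-R2 (0.84), and 0.71 without R1931. Draxin, a secreted axon guidance protein and Wnt antagonist, had medians of 19.1 and 27.2 and a log2 difference of 1.13 ± 0.392 (limma unadjusted p = 0.00778), with 1.53 in R9 and 0.79 in R1-R2. Its AU libraries reached from 0 to 29.6 and its AI libraries from 8.09 to 65.8. Sprn, a neuronal relative of the prion protein, had medians of 161.9 and 243.6 and a log2 difference of 0.52 ± 0.166 (limma unadjusted p = 0.00399), and Ildr2, an immunoglobulin-like receptor, had 346.6 and 432.8 and 0.46 ± 0.14 (limma unadjusted p = 0.00296). The difference of Sprn was 0.68 in R9 and 0.39 in R1-R2, and that of Ildr2 was 0.52 and 0.41. For Ildr2 the lowest AI library (360.1) lay above the AU median, and R1931 was that lowest AI library. The remaining genes of this group were LOC679881 (0.33), Nanos1, an RNA-binding translational repressor (0.91), Fndc3b, a fibronectin type III domain protein (0.51), Ric1, part of an exchange factor for Rab6 (0.25), and Pcdh19.

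Among the 10 genes lower in AI rats, Slc5a7 had the largest difference. It encodes the high-affinity choline transporter, which supplies choline for acetylcholine synthesis in cholinergic terminals and is made in cholinergic neurons. The normalized count was 1.14, 9.6 and 33.1 (lowest, median, highest) in AU and 0, 1.13 and 15.1 in AI rats, of which 5 were at 0. Most AI libraries lay below the AU median, at levels of a few reads. The mean was 10.7 in AU and 3.34 in AI rats, so the gene passed the filter of 5 only through AU libraries. The filter thus favored a negative sign, and the p of this gene cannot be taken as support for a difference. The log2 difference was -1.69 ± 0.51 (limma unadjusted p = 0.00272, 95% interval -2.73 to -0.64), or -1.36 in edgeR and -1.35 in DESeq2. R9 rats alone gave -2.45, and among R1-R2 rats the gene averaged under 5 and was not tested. In CA1 of the same rats the difference had the opposite sign, 1.29 ± 0.617.

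Pdgfa, a platelet-derived growth factor chain that acts on oligodendrocyte precursors, was measured with far more reads. It had a median of 595.8 in AU (450.0 to 701.4) and 470.3 in AI rats (340.8 to 596.8). The AI range was shifted down and overlapped that of AU rats. The log2 difference was -0.32 ± 0.101 (limma unadjusted p = 0.00355), -0.37 in R9 and -0.29 in R1-R2. Tcte1, a gene known from the sperm flagellum, had medians of 522.7 in AU and 390.3 in AI rats and a log2 difference of -0.33 ± 0.098 (limma unadjusted p = 0.00226), with -0.41 and -0.26 by series. Dhdds, a subunit of the enzyme that makes dolichol for protein glycosylation, had medians of 782.6 and 642.7 and a log2 difference of -0.27 ± 0.093 (limma unadjusted p = 0.00826), with -0.15 in R9 and -0.37 in R1-R2. Dbndd1, a dysbindin domain protein, had medians of 267.0 and 196.5 and a difference of -0.37 ± 0.132 (limma unadjusted p = 0.00868), with -0.40 and -0.35 by series. The other 5 had AU medians from 11.1 to 23.0 normalized counts. They were Fbxo36, an F-box protein (-1.64), Gypc, glycophorin C of the red cell membrane (-1.55), Als2cr12 (-1.47), Clic2 of the intracellular chloride channel family (-1.30) and Ccer2 (-1.20).

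The library of R1931 was often at the end of the range for these genes. It was the highest of 24 for 4 of the 10 genes higher in AI rats and the lowest, ties at 0 included, for 6 of the 10 lower ones, as well as the highest for 4 of 5 genes the study lists as higher. The direction of each of the 20 genes was the same in every series in which it was tested and without both libraries that stood apart. The genes were picked on the fit of all 24 libraries, so agreement of sign in parts of them is largely set by that choice. Without both libraries that stood apart the log2 differences moved toward 0 for some genes, for example to -1.07 for Fbxo36 and -1.02 for Gypc. They moved little for others such as Ildr2 (0.48) and Ccer2 (-1.19).

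**Figure D4:**
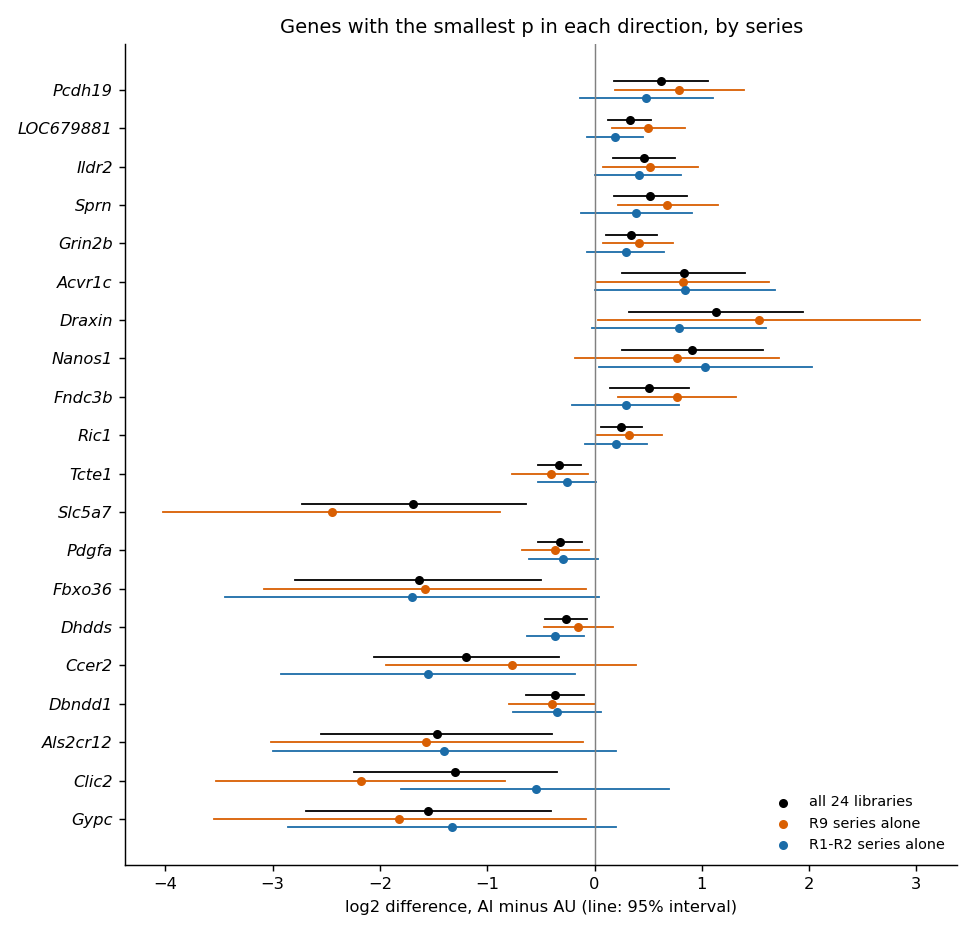
Log2 difference of AI minus AU rats (horizontal axis, with a line for the 95% interval) for the 10 genes with the smallest p in each direction, from all 24 libraries (black), the R9 series (orange) and the R1-R2 series (blue). Estimates of a gene share their sign in both series, most blue intervals reach 0, and Slc5a7 has no blue estimate because its mean was under 5 there. The genes were picked on the fit of all 24 libraries, which favors a shared sign.

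Lists of receptors and channels were examined because they carry the excitation and inhibition of CA3. For each list, the number of genes at an unadjusted p under 0.05 is set beside 0.748% higher and 1.09% lower over all genes tested, and its median log2 difference beside -0.015. Of 16 GABA-A receptor subunits, 1 (Gabrb1) was higher and 0 lower at that level, 10 differences were positive and the median was 0.07. Of 16 ionotropic glutamate receptor subunits, 1 (Grin2b) was higher and 0 lower, 12 were positive and the median was 0.11. The 8 metabotropic glutamate receptors had 0 genes past that level and a median of 0.12. Of 10 non-clustered protocadherins, 1 (Pcdh19) was higher, 9 were positive and the median was 0.18. Without R1931 and R9781, 7 of the 10 were positive with a median of 0.15.

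Of 14 voltage-gated calcium channel subunits, 1 was higher, 0 were lower and the median was 0.07. The gene was Cacna1c, the pore of the L-type calcium channel CaV1.2, with a median of 1013.6 in AU (427.8 to 1757.0) and 1249.7 in AI rats (763.3 to 1818.3). Its log2 difference of 0.39 ± 0.163 (limma unadjusted p = 0.0228) was 0.65 in R9 rats and 0.18 in R1-R2 rats. Without R9781 it was 0.30 (limma unadjusted p = 0.0586). The 29 genes of calcium stores, pumps and sensors had 0 past that level and a median of 0.00. Of 80 potassium channel genes, 2 were higher, 2 lower and 45 positive. Kcna2, a Kv1 channel of axons, had medians of 525.4 and 624.0 and a log2 difference of 0.31 ± 0.115 (limma unadjusted p = 0.013). Kcnmb4, the neuronal beta4 subunit of BK channels, had medians of 957.3 and 672.0 and a log2 difference of -0.41 ± 0.156 (limma unadjusted p = 0.0142). By series, R9 first, the differences were 0.38 and 0.25 for Kcna2 and -0.32 and -0.49 for Kcnmb4. For both genes R1931 was the most extreme library.

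Synaptic and activity lists were close to the background. The 22 genes of the presynaptic vesicle cycle had 0 genes at an unadjusted p under 0.05 and a median of 0.00, and the 20 postsynaptic density entries had 0 and a median of 0.06. Both medians had opposite signs by series, 0.16 in R9 and -0.11 in R1-R2 rats for the presynaptic genes and 0.18 and -0.08 for the postsynaptic entries. The 15 immediate early genes, which report recent neuronal activity, had 0 past that level and a median of -0.13, and the 8 neurotrophins and receptors had 0 and a median of -0.07. The 24 Wnt ligands and receptors had 0 and a median of -0.06, or 0.09 in R9 rats, where 3 were past that level, and -0.10 in R1-R2 rats.

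Neuropeptide precursors were the list with the lowest median among the pathways. Of 13, 0 were higher and 3 lower in AI rats at an unadjusted p under 0.05, 2 were positive and the median was -0.25. The median was -0.48 in the R9 series, -0.39 in the R1-R2 series and -0.18 without R1931 and R9781. Vip, made by interneurons that inhibit other interneurons, had a normalized count of 88.5, 162.1 and 362.3 (lowest, median, highest) in AU and 45.1, 106.7 and 240.1 in AI rats. Its log2 difference was -0.56 ± 0.211 (limma unadjusted p = 0.0139), with -0.53 in R9 and -0.58 in R1-R2. The level was lower in the R1-R2 series than in the R9 series in both groups, and within each series the AI median lay below that of AU rats. Trh, thyrotropin-releasing hormone, had medians of 11.1 and 4.35 and a log2 difference of -1.21 ± 0.45 (limma unadjusted p = 0.0121), which was -1.70 in R9, -0.80 in R1-R2 and -0.75 without both libraries that stood apart. The mean of Trh was 12.5 in AU and 4.92 in AI rats, so it passed the filter of 5 through AU libraries, which favors a negative sign. Npy, neuropeptide Y, had medians of 48.7 in AU (34.3 to 78.2) and 34.3 in AI rats (1.18 to 60.6) and a log2 difference of -0.76 ± 0.357 (limma unadjusted p = 0.0419). That value depended on 1 library. R9781 held 1.18 in CA3 where CA1 and DG of the same rat held 37.8 and 50.3, and without it the difference was -0.39 (limma unadjusted p = 0.0469). Leaving out any of 7 other libraries raised its p above 0.05.

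Cytosolic ribosomal proteins were taken by a pattern of gene names, which matched 111 tested entries. Among these were S6 kinases and Rps19bp1, which are not ribosomal proteins, and the 100 entries without them, pseudogenes included, are described. Of these, 0 were higher and 7 lower at an unadjusted p under 0.05, 15 differences were positive and the median was -0.17. With all 111 the numbers were 0, 7 and 24, with a median of -0.15. In the R9 series 9 of 100 were past that level in either direction with a median of -0.20, and in the R1-R2 series 0 of 100 with a median of -0.11. Without R1931 and R9781 the count was 2, with 37 positive and a median of -0.08. The table has 4 entries named Rpl21. The one with the smallest p had medians of 266.9 and 176.0 and a log2 difference of -0.59 ± 0.223 (limma unadjusted p = 0.013), with R1931 as its lowest library, and the others had -0.50, -0.16 and -0.14. Copies of this gene can share reads. The 81 respiratory chain genes had 0 past that level and a median of -0.10, or -0.04 without the libraries that stood apart.

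The other lists held few or no genes past that level. They were purine metabolism (0 of 14, median 0.02), antioxidant and methionine sulfoxide reductase genes (0 of 23, -0.05), early endosome genes (0 of 10, 0.01), MHC class II and complement (0 of 12, -0.09) and heat shock proteins (0 of 15, -0.01). Of 12 interferon-stimulated genes, 1 was lower with a list median of -0.10. It was Irf9, the DNA-binding part of the interferon transcription factor ISGF3, with medians of 247.4 and 216.9 and a log2 difference of -0.37 ± 0.151 (limma unadjusted p = 0.0215), or -0.31 (limma unadjusted p = 0.0511) without AU rat R2185.

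**Figure D5:**
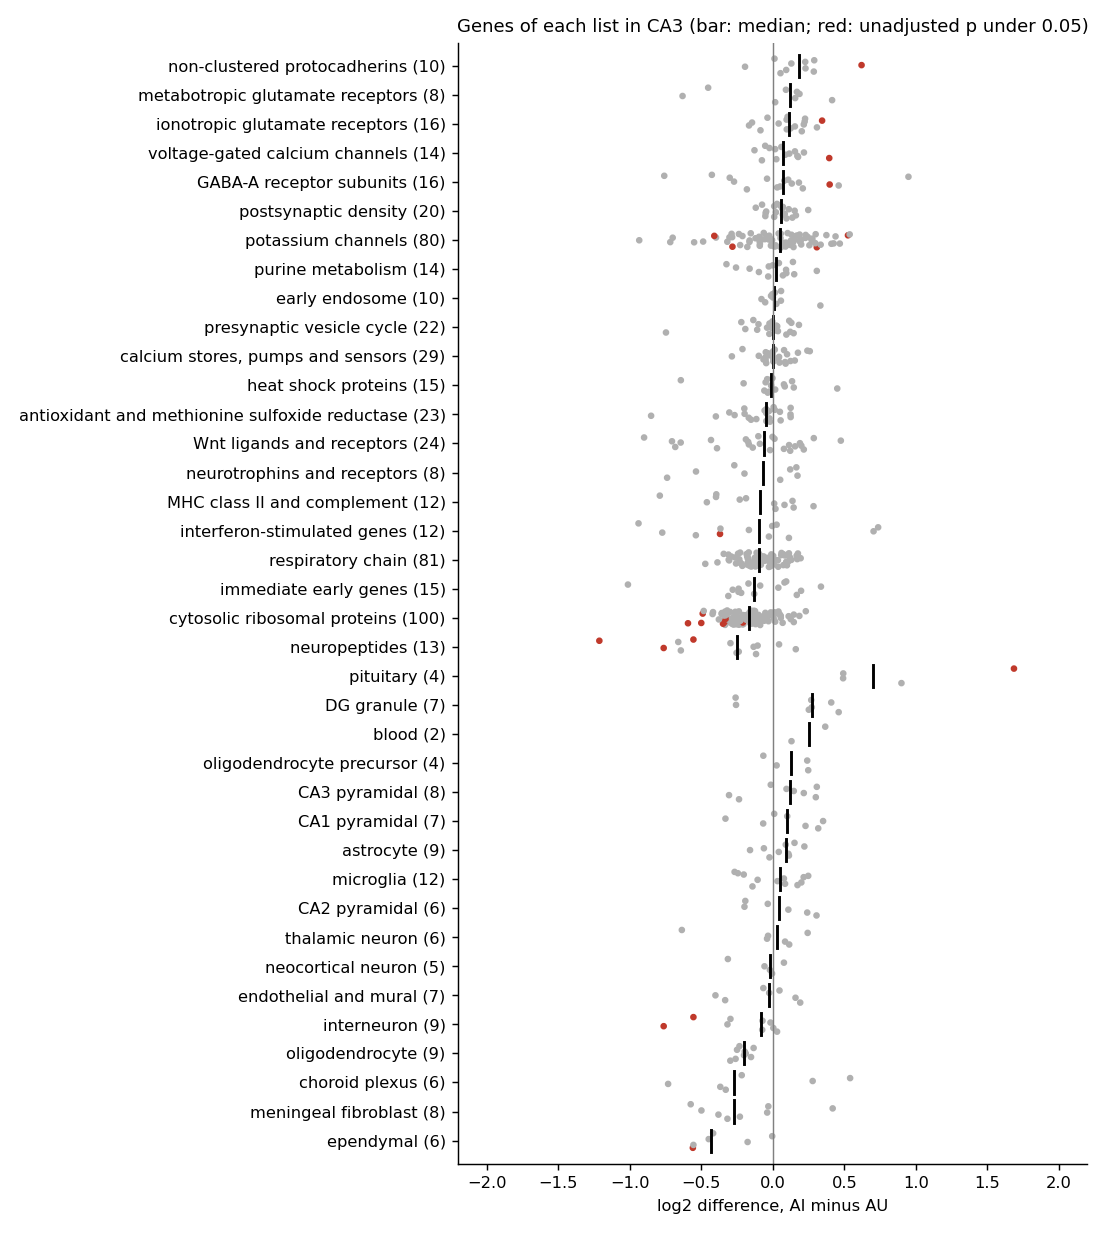
Log2 difference of AI minus AU rats (horizontal axis) for each tested gene of 21 pathway lists and 17 marker lists (number of genes in parentheses), with a bar at the list's median and red points for an unadjusted p under 0.05. Most medians lie between -0.17 and 0.13. To the left lie those of oligodendrocyte (-0.20), neuropeptide (-0.25), choroid plexus and meningeal (-0.27 each) and ependymal genes (-0.43), and to the right those of protocadherins (0.18), blood (0.25), DG granule cell (0.27) and pituitary genes (0.70).

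Markers of cell types were examined because the dissected pieces may have differed in composition. Neuronal subfield markers had medians of 0.10 for CA1 (7 genes), 0.12 for CA3 (8), 0.04 for CA2 (6) and 0.27 for DG granule cells (7), with 0 genes at an unadjusted p under 0.05. The DG median was 0.67 in R9 rats and -0.32 in R1-R2 rats. The summed count of the 8 DG markers ran from 1414.5 to 5378.9 over AU libraries and from 1398.2 to 7322 over AI libraries, and all of them were above 0. In the R9 series its median was 1880.9 in AU and 3577.6 in AI rats, where 2 AI libraries had DG as their highest score. The part of tissue from neighboring subfields in the R9 estimates was not tested.

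Of the glial and vascular lists, microglia (12 genes, median 0.05), astrocytes (9, 0.09), oligodendrocyte precursors (4, 0.13) and endothelial and mural cells (7, -0.03) had 0 genes past that level. All 9 oligodendrocyte markers had a negative difference with a median of -0.20, which was -0.51 in R9 rats and -0.03 in R1-R2 rats. Without R1931 and R9781 the median was -0.07 and 2 of the 9 were positive. None of the 9 had an unadjusted p under 0.05, and their summed count ran from 96463 to 234687.7 over AU libraries and from 48944.3 to 211962.9 over AI libraries. Of 9 interneuron markers, 0 were higher and 2 lower (Vip and Npy), with a median of -0.08. Their summed count had a median of 7999.7 in AU and 8426.5 in AI rats.

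Ventricular and border tissues varied with the series. The 6 ependymal markers were all lower in AI rats with a median of -0.43, and 1 of them, Ccdc153 of motile cilia, had an unadjusted p under 0.05 (-0.56 ± 0.249, limma p = 0.0333), a level it missed when any of 6 libraries was left out. The list's median was -0.63 in R9 rats, -0.10 in R1-R2 rats and -0.19 without R1931 and R9781. The summed ependymal count had medians of 512.2 in AU and 513.1 in AI rats when the series were pooled, and 377 and 259.7 in the R9 series. Choroid plexus markers (6 tested) had a median of -0.27, which was -0.72 in R9, 0.29 in R1-R2 and 0.49 without the libraries that stood apart, so the sign was not the same in these fits. Meningeal fibroblast markers (8) had a median of -0.27, or -0.32 in R9, 0.06 in R1-R2 and 0.08 without those libraries. Thalamic (6 tested, 0.03), neocortical (5, -0.02) and blood markers (2, 0.25) had 0 genes past that level.

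Whether an effect was particular to CA3 was asked within rats, as the AI minus AU difference in CA3 minus the mean of that in CA1 and DG. No gene of 16372 passed an adjusted p of 0.05 in limma, and 448 (2.74%) had an unadjusted p under 0.05, of which 46 were under 0.01. The genes with the smallest p among those lower in CA3 were Slc5a7 (-2.54 ± 0.64, limma unadjusted p = 0.000575), Slc24a1, a sodium, calcium and potassium exchanger (-1.69 ± 0.444, limma unadjusted p = 0.000852), and Emc6 of the endoplasmic reticulum membrane complex (-0.48 ± 0.128, limma unadjusted p = 0.000965). By series, R9 first, the values were -3.31 and -1.89 for Slc5a7, -1.62 and -1.76 for Slc24a1 and -0.53 and -0.44 for Emc6. For Slc5a7 the AU and AI medians were 9.6 and 1.13 in CA3, 4.51 and 11 in CA1, and 5.99 and 6.58 in DG. The order of the groups in CA3 was thus opposite to that in CA1, where 1 AU library reached 139.4. Slc5a7 was also named above for its difference in CA3, which is part of its value here. Its p in this test is thus not independent evidence of an effect particular to CA3.

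Among genes relatively higher in CA3, Nsl1, a kinetochore protein of the MIS12 complex, had 1.20 ± 0.314 (limma unadjusted p = 0.000841), Ttc16 had 1.02 ± 0.337 (limma unadjusted p = 0.00579) and Klhdc1 had 0.70 ± 0.224 (limma unadjusted p = 0.00471). By series they were 1.65 and 0.82 for Nsl1, 0.94 and 1.09 for Ttc16 and 0.52 and 0.84 for Klhdc1. For Nsl1 the medians were 12.8 and 20.5 in CA3 and 17.4 and 10.9 in CA1, and for Ttc16 they were 11.9 and 14.3 in CA3 and 16.2 and 8.09 in CA1. For Ttc16 the log2 difference in CA1 was -1.37 ± 0.449, larger in size than that in CA3 of 0.34 ± 0.283. Of the genes the study lists for CA3, Pcdh19 had 0.68 ± 0.288 (limma unadjusted p = 0.0268) in this test. Pcdh19 was picked for its difference in CA3, which is part of that value. Its p-values in this test are thus not independent evidence of an effect particular to CA3. By series its value was 0.62 in R9 rats (limma unadjusted p = 0.18) and 0.73 in R1-R2 rats (limma unadjusted p = 0.0731). Without R1931 and R9781 it was 0.44 (limma unadjusted p = 0.0792), with an interval from -0.06 to 0.95 that includes no difference.

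Whether the effect of memory status differed between the R9 and R1-R2 series was tested as an interaction. No gene of 16436 passed an adjusted p of 0.05 in limma, and 275 (1.67%) had an unadjusted p under 0.05, of which 35 were under 0.01. Cenpt, a centromere protein, had the smallest p (-3.97 ± 0.904, R9 minus R1-R2, limma unadjusted p = 0.000177). Its AU and AI medians were 14.1 and 3.48 in R9 rats and 6.2 and 15.0 in R1-R2 rats, at levels of a few reads in some libraries, and R1931 was its highest library at 61.3. Lrrc4, which encodes netrin-G ligand 2, a postsynaptic adhesion protein, followed with 0.61 ± 0.155 (limma unadjusted p = 0.000593). Its medians were 834.6 and 1060.8 in the R9 series, where the AU libraries reached 877.6 and the AI libraries began at 948.8, and 1107.5 and 992.0 in the R1-R2 series. Lrrc4 was picked by its p in this test. How many genes separate the groups among R9 rats was not counted, so this separation has no background to be set against.

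Genes that the study lists for memory status in the other subfields, and for age, were also read in CA3. These lists were chosen on libraries of the same rats, so the values are a description. Of 44 tested genes listed as higher in CA1 of AI rats, 1 (Prl) was higher in CA3 at an unadjusted p under 0.05, 20 were positive and the median was -0.04, where the median in CA1 itself was 0.65. Of 59 listed as lower in CA1, 0 were past that level, 34 were positive and the median was 0.02, against -0.33 in CA1. Of 15 listed as higher in DG, 1 (again Prl) was higher, with a median of 0.12, and of 12 listed as lower in DG, 0 were past that level, with a median of -0.05. The 24 genes listed as higher with age in every subfield had 0 past that level, 11 positive differences and a median of -0.03.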

How the data were processed

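The authors isolated total RNA from dissected CA1, CA3 and DG, selected poly-A RNA and sequenced it on the Ion Proton. Per the study's methods, the reads were aligned to rn5 with TopHat2 and then Bowtie2 in Partek Flow and summarized per gene with featureCounts 1.4.4. The authors deposited 1 table of normalized counts, a signal per gene after division by DESeq2 (version 1.10.1) size factors, for 26689 genes in 102 libraries. Hand dissection sets the tissue makeup of each library, and division by a size factor keeps relative levels only. Of the genes, 4719 had no symbol in the table, and 453 of these were named from the ID and symbol pairs of the study's tables. Genomic positions were not used here.

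The values of each CA3 library were whole multiples of its smallest step for 100% of values (tolerance 0.001), so whole reads were recovered for the quasi-likelihood test of edgeR 4.0.16 with TMM scaling and for DESeq2 1.42.0. The main test was limma 3.58.1 in R 4.3.3 (eBayes with trend, two-sided) on log2(value + 1). Genes averaging under 5 in the fitted libraries were left out. The fit had the identifier series as covariate and Benjamini-Hochberg adjustment over all genes tested. For low genes, differences on this scale can depart from those of the count models in either direction. Compared with edgeR, that of Prl was smaller and that of Slc5a7 larger in size. The effect in CA3 against CA1 and DG was tested on within-rat differences, each rat being its own block. Libraries of the same rat shared little of their deviation from the group mean, with a mean correlation of 0.087 for CA3 with CA1 and 0.025 for CA3 with DG, over 0.1 in 13 and 12 of 24 rats. Python 3.11.15, numpy 2.4.6, pandas 2.3.3 and matplotlib 3.10.9 were used for summaries and figures.

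The genes named are 7 of the study's CA3 list, the 10 with a symbol and the smallest p in each direction, at most 2 per list with an unadjusted p under 0.05, 3 per direction from the within-rat test and 2 from the series test; Gh1 was added after its values were seen, and 2 genes that the rule names are not reported here. The members and the lists were chosen with earlier results of these data known. Alternatives were the pseudocount, the filter, the scaling, the count models, the covariates, library weights, a fit with young rats, each series alone and leaving out each library. An alternative without R1931 and R9781 was chosen after seeing the data, as was the ribosomal list without S6 kinases and Rps19bp1. The Illumina sequencing, small RNA and behavioral records of the study were not analysed here.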

Additional observations from a re-analysis of the deposited data

Results flagged for a closer look

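Each of 7 genes that the study lists for CA3 was checked within each group of libraries for a highest or lowest value that lies far from the nearest other one (Dixon's test at the 95% level). Of 34 groups tested, 9 held such a library. The level of the test holds for independent and normally distributed values. Here it was run on normalized counts, Prl had no reads in most AU libraries, and R1931 was the flagged library for several genes. The number of flagged groups can therefore not be set against a chance rate.

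In AI rats of the R1-R2 series (n = 7), the library of R1931 was far above the others for Pcdh19 (3109.5 against 995.6 for the nearest), Gabrb1 (2081.2 against 599) and Gda (4653.6 against 1289.9). The same group held the high Prl value of R2233 (315.3 against 52.3). In AU rats, Prl reached 4.05 in R9860 of the R9 series (n = 6, nearest 1.17) and 2.57 in R2184 of the R1-R2 series (n = 6, nearest 0), both at levels of a few reads. Msrb2 was 400.2 in R9865, an AU rat of the R9 series (n = 6, nearest 263.9). In young CA3 (n = 10), Pcdh17 was 1563.6 in R2175 (nearest 1081.4) and Wnt6 was 393.4 in R9876 (nearest 5.26). The causes were not tested.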

How the results depend on the processing

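No gene passed an adjusted p of 0.05 between AI and AU rats under any alternative run, including edgeR, DESeq2, each series alone and leaving out each of the 24 libraries (0 to 0 genes), and the same held for the within-rat test and the series test. The within-rat test treats each rat as a block. Without that block, in a single fit of 72 libraries, the count was also 0. AI and AU rats share no animals, so the comparison between them has no pairing.

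Of the study's CA3 genes, 3 had an unadjusted p under 0.05. The number was 1 in the R1-R2 series alone and 1 to 4 when single libraries were left out, with 1 without AU rat R2185 and without AU rat R2237. The number of all genes at an unadjusted p under 0.05, 302, moved to 538 without the filter on low values, 118 in the R1-R2 series alone, 487 in a fit that included young rats and 558 with library weights. In the within-rat test, 448 moved to 746 without the filter, and in the series test 275 moved to 468. All 1348 values of 34 single genes under the alternatives kept the direction of the reported value. Many alternatives left out 1 library only and many genes were picked on these fits, so a kept direction is largely set in advance. The causes were not tested, apart from the smaller or larger number of libraries and genes that an alternative itself sets. The spread between animals limits what can be said of genes with a mean under 20 normalized counts. An unadjusted p is given for a gene only to place it in the ranking.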
